A study of Mus musculus with 24 samples.

Results

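RNA helicases of the DEAD-box and DEAH-box families and genes of the mRNA decay machinery were compared between heat-shocked and control mouse embryos. The members were all genes whose symbols begin with Ddx, Dhx, Cnot, Exosc, Xrn, Dcp, Edc, Upf, Smg or Pabpc followed by the usual numbering, together with Pan2 and Pan3, read from probes that carry exactly 1 symbol in the array annotation. The rule also names Parn, for which no probe with exactly 1 symbol was found. This gave 59 genes of the 6970 measured on either slide type, of which 34 were helicases (25 Ddx and 9 Dhx genes) and 25 were decay genes. Among the decay genes 10 act in deadenylation, 5 in decapping or 5′-3′ decay, 5 in the exosome, 3 in nonsense-mediated decay and 2 are cytoplasmic poly(A)-binding proteins. Slide type 1 measured 40 of the members among its 3838 genes, slide type 2 measured 29 among its 4075, and 10 members were on both.

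Embryos of the heat-shocked group were held at 43 °C for 15 min in culture, put back at 37 °C, and taken 1 h later. The control group stayed at 37 °C throughout. The sources used here do not give the strain or the stage of the embryos. Total RNA of the 2 groups was set against each other on 24 arrays with 2 channels, from 3 numbered treatments, each hybridised to 2 slide types with different probes.

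A treatment had 4 arrays per slide type, covering both channel orders, which were averaged, so n is 3 treatments throughout. The labels do not say whether each treatment had its own litters. The p-values therefore measure only the spread between these treatments, which may be technical. The values are the authors' log ratios between heat-shocked and control RNA, and the sources used here state neither the log base nor the numerator. One log unit would be 2-fold for log base 2 and 2.72-fold for the natural log. The direction of the ratio is therefore not settled, and values are given as lying on a positive or a negative side. The positive side is the one on which Hsph1 and Hspb1, which encode heat shock proteins, and Jun, an immediate early transcription factor gene, lay. Hsph1 had 1.90, 2.85 and 2.10 log units in treatments 1, 2 and 3 on slide type 1, Jun had a mean of 1.97 ± 0.33 (SD, n = 3) there, and Hspb1 had 2.23 ± 0.050 (SD, n = 3) on slide type 2. Were the ratio the other way round, the sides of every value and count below would be exchanged.

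The median over all probes was subtracted from each array, so a value of 0 means the middle of its array, not an equal amount of RNA. Without centring the median of all genes moved by 0.30 log units on slide type 1, and by 0.083 on the other. Deposited array medians ran from −0.667 to 0.653 on slide type 1 and from −1.51 to 0.236 on slide type 2, where the lowest belonged to treatment 2. The lowest correlation over all probes between arrays of the same channel order was 0.294 on slide type 1 and −0.337 on slide type 2. Averaging the 4 arrays of a treatment brought the correlations between treatments to 0.704 to 0.801 on slide type 1 and 0.823 to 0.904 on slide type 2. These averages join both channel orders, so they do not show that single arrays were alike. The correlation of arrays within a treatment, estimated by limma with channel order in the fit, was 0.0653 on slide type 1 and −0.205 on slide type 2. Log ratios give no level, so the tissue could not be checked against its markers. In whole embryos fewer cells of a type and less RNA per cell cannot be told apart.

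RNA helicases use ATP to remodel RNA and RNA-protein complexes, and family members serve transcription, splicing, export, ribosome assembly and translation. Decay of most cytoplasmic mRNAs begins with shortening of the poly(A) tail by the PAN2-PAN3 and CCR4-NOT complexes, after which the message is either decapped and degraded from its 5′ end or degraded from its 3′ end by the exosome. Nonsense-mediated decay removes messages with premature stop codons, and cells under heat stress are known to halt much of translation and to gather untranslated mRNA in granules.

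Genes induced by heat shock factors carry heat shock elements, inverted repeats of the bases GAA and TTC, near their start sites, so member promoters were searched for them. The windows ran from 250 bases before to 50 after the annotated start in RefSeq (GRCm38.p6), and 53 of the 59 members had one. The short form searched was GAANNTTC or TTCNNGAA, each its own reverse complement and so the same on both strands. It was held by 8 of 53 member genes (15.1%), against 4587 of 27025 genes in the table (17%). The longer form, GAANNTTCNNGAA or TTCNNGAANNTTC, which contains the short one, was found in 0 of 66 member promoters and in 198 of 32851 promoters overall (0.603%). Hsph1 held 3 short matches and 1 long match, Hspb1 held 2 short matches and Jun held 1. The member genes with a short match were Cnot2, Ddx5, Ddx10, Ddx17, Ddx19b, Ddx39b, Ddx42 and Exosc5. Among the 16 members that passed a test below, 15 had a promoter window and 4 of these (26.7%) held a match. Those 4 are printed here because they also had the 4 lowest member values on slide type 2, with the match in capitals and each line running 5′ to 3′ on the strand of the gene. For a gene with several listed starts, a window that holds a match was chosen. The Cnot2 window is chr10:116527900-116528199 (minus strand), 1 of its 2 listed starts, with the match beginning at position 24 after the start. The other Cnot2 start had no match. The Ddx39b window is chr17:35241496-35241795 (plus strand), with the match at −87. The Ddx17 window is chr15:79546692-79546991 (minus strand), 1 of its 2 listed starts, which both had a match, here at −131. The Ddx5 window is chr11:106788445-106788744 (minus strand), 1 of its 3 listed starts and the only one with a match, at −139. A match describes letters in a window and is no evidence of binding, and the genes lay on the side opposite to Hsph1, Hspb1 and Jun.
Cnot2: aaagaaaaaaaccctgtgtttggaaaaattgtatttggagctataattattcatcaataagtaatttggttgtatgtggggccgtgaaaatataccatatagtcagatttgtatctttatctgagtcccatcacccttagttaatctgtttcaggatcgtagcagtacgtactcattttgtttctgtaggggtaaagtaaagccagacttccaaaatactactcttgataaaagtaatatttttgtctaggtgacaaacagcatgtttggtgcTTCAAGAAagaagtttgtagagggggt
Ddx39b: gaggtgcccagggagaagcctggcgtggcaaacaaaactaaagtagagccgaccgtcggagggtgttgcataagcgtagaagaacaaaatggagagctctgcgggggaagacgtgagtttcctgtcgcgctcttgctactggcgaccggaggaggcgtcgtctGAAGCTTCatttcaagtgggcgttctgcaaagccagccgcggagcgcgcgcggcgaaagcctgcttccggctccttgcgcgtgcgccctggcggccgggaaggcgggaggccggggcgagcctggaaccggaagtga
Ddx17: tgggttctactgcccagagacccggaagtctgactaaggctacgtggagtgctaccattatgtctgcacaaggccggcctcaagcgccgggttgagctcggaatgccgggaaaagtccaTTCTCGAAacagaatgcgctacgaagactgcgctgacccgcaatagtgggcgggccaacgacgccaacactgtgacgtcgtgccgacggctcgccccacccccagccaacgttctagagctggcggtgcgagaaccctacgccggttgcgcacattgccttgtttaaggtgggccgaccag
Ddx5: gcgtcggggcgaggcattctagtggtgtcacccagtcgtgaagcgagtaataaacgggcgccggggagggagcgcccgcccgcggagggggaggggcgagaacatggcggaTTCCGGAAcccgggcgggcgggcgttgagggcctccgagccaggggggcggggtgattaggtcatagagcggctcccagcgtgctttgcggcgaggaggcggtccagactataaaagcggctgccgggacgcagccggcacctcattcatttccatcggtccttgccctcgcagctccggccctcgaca

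The deadenylation genes held the lowest value of all members. On slide type 2, 5 of 7 measured deadenylation genes passed on the negative side and 0 on the positive side, by limma with Benjamini-Hochberg adjustment at 0.05 over all genes of the slide type. The 5 were Cnot2, Cnot9, Pan2, Cnot7 and Cnot8. Over all genes of slide type 2, 31.9% passed on the negative side (1299 of 4075) and 18.5% on the positive side (753 of 4075). The median of the 7 genes was −0.23 log units, against −0.049 over all genes. It was −0.15 both without centring and with centring on probes of 1 symbol. Without centring Cnot2 alone of the 5 still passed. The medians of the 7 were −0.18, −0.37 and −0.18 in treatments 1, 2 and 3.

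Cnot2, a scaffold subunit of CCR4-NOT, lay at −0.72, −0.72 and −0.74 log units in treatments 1, 2 and 3 on slide type 2. All 3 treatments were close together, and Cnot2 was below 0 on 12 of 12 arrays, between −1.21 and −0.27. Its mean was −0.72 ± 0.011 (SD, n = 3; 95% interval −0.84 to −0.60), limma adjusted p = 6.42e-08, which placed it 17th from the bottom of 4075 genes. This would be 1.65-fold for log base 2 and 2.06-fold for the natural log.

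Cnot9, a subunit that docks regulators onto the complex, lay at −0.34, −0.42 and −0.36 log units, a mean of −0.37 ± 0.042 (SD, n = 3; limma adjusted p = 8.52e-05). The treatment means differed little, and the gene was below 0 on 10 of 12 arrays. The 2 others were those of treatment 2 with heat-shocked RNA in channel 1 (0.33 and 0.24), against −1.12 and −1.14 in channel 2. Over the treatments the 2 channel orders had means of −0.12 and −0.63. Pan2, the nuclease of the PAN2-PAN3 complex, lay at −0.18, −0.37 and −0.29, a mean of −0.28 ± 0.095 (SD, n = 3; limma adjusted p = 0.0012). Its partner Pan3, which recruits it to poly(A), did not pass (mean 0.043, limma adjusted p = 0.538), and its 2 probes lay on opposite sides at −0.081 and 0.17.

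Cnot7 and Cnot8 encode alternative forms of the same nuclease subunit of CCR4-NOT. Cnot7 lay at −0.14, −0.37 and −0.18 log units, a mean of −0.23 ± 0.12 (SD, n = 3; limma adjusted p = 0.00601). Cnot8 lay at −0.22, −0.27 and −0.14, a mean of −0.21 ± 0.066 (SD, n = 3; limma adjusted p = 0.00726), with its 2 probes at −0.24 and −0.18. For both, treatment 2 was the lowest. Cnot6, which encodes the other nuclease of the complex, lay at −0.032, −0.35 and −0.031 and did not pass (mean −0.14, limma adjusted p = 0.0943), its low mean coming mostly from treatment 2.

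Slide type 1 measured 5 deadenylation genes, and 0 of them passed limma, where 5.65% of all genes passed on the negative side (217 of 3838) and 5.73% on the positive side (220 of 3838). At an unadjusted p under 0.05, 3 of the 5 did so on the negative side, as did 15.8% of all genes. Their median was −0.17 log units, against −0.038 over all genes, and it lay at 0.13 without centring. Cnot1, the central scaffold, lay at −0.20, −0.20 and −0.12, a mean of −0.17 (limma adjusted p = 0.0735). Cnot2 had a mean of −0.19 ± 0.026 (SD, n = 3; limma adjusted p = 0.0551) there over 3 probes, which ran from −0.42 to 0.034. Cnot11, a subunit of the complex, varied more, at −0.14, −0.0041 and −0.37 (limma adjusted p = 0.181). Cnot6l and Cnot7 lay near 0, at −0.012 and −0.011, and the treatments fell on both sides of 0 for each.

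**Figure D1:**
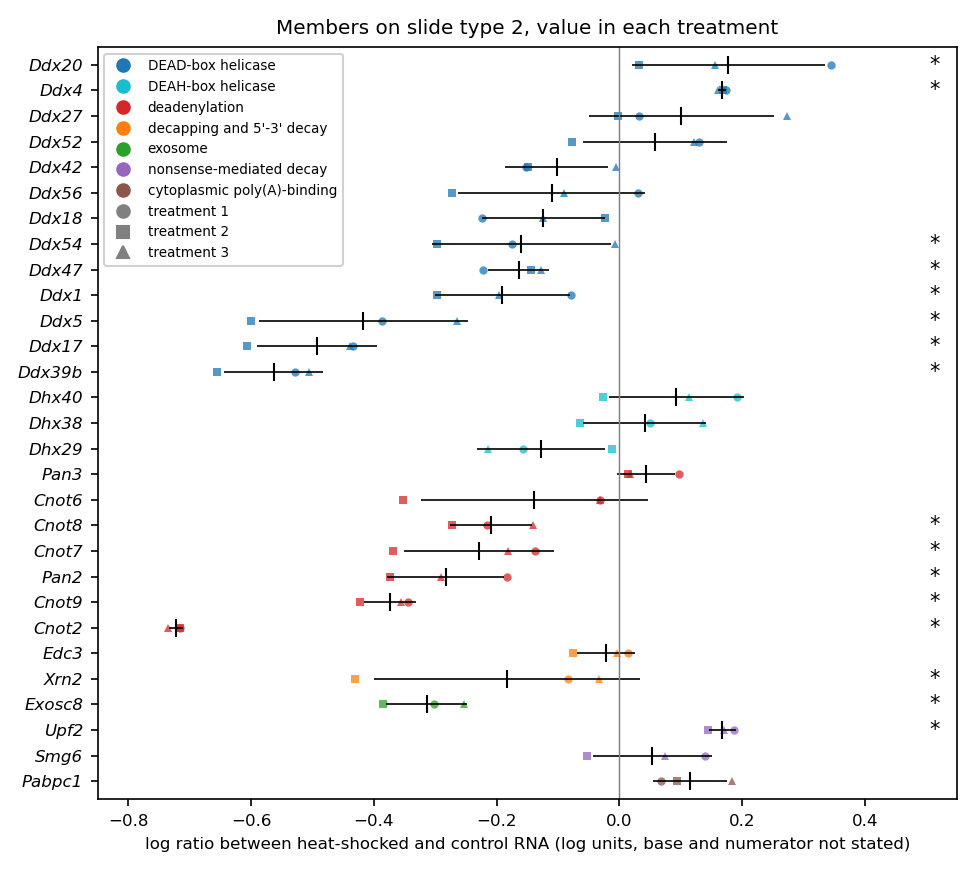
Log ratio (horizontal axis, log units of unstated base) of the 29 members on slide type 2 in each of 3 treatments (symbols), with the mean (vertical tick) and SD (bar), coloured by role; an asterisk marks the 16 that passed limma at an adjusted p of 0.05. Cnot2 sits furthest to the left at −0.72, followed by Ddx39b at −0.56 and Ddx17 at −0.49.

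The DEAD-box helicases were divided on slide type 2. Of 13 measured, 6 passed on the negative side and 2 on the positive side, which is 46.2% and 15.4%, against 31.9% and 18.5% of all genes. Their median was −0.12 log units and their values ran from −0.56 to 0.18.

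Ddx39b, known as UAP56, works in splicing and in mRNA export from the nucleus. It lay at −0.53, −0.66 and −0.51 log units in treatments 1, 2 and 3, a mean of −0.56 ± 0.080 (SD, n = 3; limma adjusted p = 1.78e-06). Treatment 2 was the lowest, and 10 of 12 arrays were below 0. The 2 others were those of treatment 2 with heat-shocked RNA in channel 1 (0.21 and 0.17), against −1.57 and −1.43 in channel 2. The close paralog Ddx39a, measured on slide type 1, lay at −0.19, −0.25 and −0.11 and did not pass (limma adjusted p = 0.0679).

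Ddx5 and Ddx17 encode the related helicases p68 and p72, which act in transcription, splicing and microRNA processing. Ddx17 lay at −0.43, −0.61 and −0.44 log units on slide type 2, a mean of −0.49 ± 0.098 (SD, n = 3; limma adjusted p = 8.26e-06). On the other slide type it lay at −0.42, −0.35 and −0.27, a mean of −0.35 ± 0.076 (SD, n = 3; limma adjusted p = 0.00358), and was below 0 on 12 of 12 arrays. The gene was thus on the same side in all 3 treatments of both slide types. Ddx5 lay at −0.39, −0.60 and −0.26 on slide type 2, a mean of −0.42 ± 0.17 (SD, n = 3; limma adjusted p = 0.00012), with its 2 probes at −0.43 and −0.40. Probe sequences were not used here, so signal shared between the paralog pairs Ddx5 and Ddx17 or Ddx39a and Ddx39b was not tested.

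The other helicases on the negative side were nearer to 0. Ddx1, part of the tRNA ligase complex, lay at −0.078, −0.30 and −0.20 log units (mean −0.19 ± 0.11, SD, n = 3; limma adjusted p = 0.0157). Ddx47, which acts in ribosomal RNA processing, lay at −0.22, −0.14 and −0.13 (mean −0.16 ± 0.050, SD, n = 3; limma adjusted p = 0.0249). Ddx54, a nucleolar helicase, lay at −0.17, −0.30 and −0.0069 (mean −0.16 ± 0.15, SD, n = 3; limma adjusted p = 0.0451). Ddx54 had the widest spread of the 3, with treatment 3 near 0.

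Ddx20 and Ddx4 were the helicases on the positive side. Ddx20, known as Gemin3, belongs to the SMN complex that assembles spliceosomal particles, and it lay at 0.34, 0.032 and 0.16 log units (mean 0.18 ± 0.16, SD, n = 3; limma adjusted p = 0.0311). Ddx4, the germ cell helicase Vasa, lay at 0.17, 0.17 and 0.16 (mean 0.17 ± 0.0063, SD, n = 3; limma adjusted p = 0.0211). The treatment means of Ddx4 nearly coincided while those of Ddx20 did not. Each mean joins both channel orders, and the 12 arrays of Ddx4 ran from −0.87 to 1.17, with 4 below 0. The arrays of Ddx20 ran from −0.71 to 0.86, also with 4 below 0. The small SD of Ddx4 therefore does not show that its arrays were alike. The remaining 5 DEAD-box helicases did not pass, and among them Ddx18 and Ddx42 had the smallest p, with means of −0.12 and −0.10 (limma adjusted p = 0.0907 and 0.151), followed by Ddx56 at −0.11 (limma adjusted p = 0.156). Ddx27 and Ddx52 had means of 0.10 and 0.057 (limma adjusted p = 0.192 and 0.44).

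Ddx17 alone of the 16 DEAD-box helicases on slide type 1 passed. It was the only call among the 40 members there, against 5.65% and 5.73% of all genes on the negative and positive sides. Without centring, or with heat-shocked RNA in channel 1 only, it did not pass either (means −0.044 and −0.12, limma adjusted p = 0.798 and 0.167). The nucleolar helicases Ddx21 and Ddx27 came next and lay on different sides. Ddx21 lay at −0.26, −0.30 and −0.080 log units (mean −0.21 ± 0.12, SD, n = 3; limma adjusted p = 0.0551). Ddx27 lay at 0.13, 0.19 and 0.27 (mean 0.20 ± 0.068, SD, n = 3; limma adjusted p = 0.0535), above 0 on 12 of 12 arrays. The other 12, Ddx3x, Ddx10, Ddx18, Ddx19b, Ddx24, Ddx31, Ddx41, Ddx46, Ddx51, Ddx52, Ddx55 and Ddx58, had means between −0.12 and 0.069, and Ddx39a is given above. Ddx58, the viral RNA sensor RIG-I, stood at −0.29 in one channel order and 0.43 in the other. The median of the 22 helicases there was −0.035, close to the −0.038 of all genes, and it lay at 0.27 without centring and at 0.0072 with centring on probes of 1 symbol.

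Limma called 0 of the 6 DEAH-box helicases of slide type 1, where 5.65% of all genes passed on the negative side and 5.73% on the positive side, and 0 of the 3 of slide type 2, where these shares were 31.9% and 18.5%. At an unadjusted p under 0.05, 1 of the 6 lay on each side, against 15.8% of all genes on the negative and 8.23% on the positive side. The same threshold took 1 of the 3 on the negative side, against 35.9% of all genes. Dhx37, which acts in ribosome assembly, lay at 0.19, 0.17 and 0.20 log units on slide type 1 (mean 0.18 ± 0.013, SD, n = 3; limma adjusted p = 0.0546). Dhx30, a helicase of mitochondrial RNA granules, lay at −0.28, −0.14 and −0.11 (mean −0.18 ± 0.093, SD, n = 3; limma adjusted p = 0.0878). The 12 arrays were all above 0 for Dhx37 and all below 0 for Dhx30. The splicing helicase Dhx16 had a mean of −0.12 (limma adjusted p = 0.268), and the other 3 of slide type 1, Dhx8, Dhx15 and Dhx36, lay between −0.069 and 0.056. Measured on slide type 2, Dhx29, which aids scanning of structured leaders in translation initiation, had a mean of −0.13 (limma adjusted p = 0.0833), the splicing helicase Dhx38 had 0.041 (limma adjusted p = 0.574) and Dhx40 had 0.093 (limma adjusted p = 0.205).

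**Figure D2:**
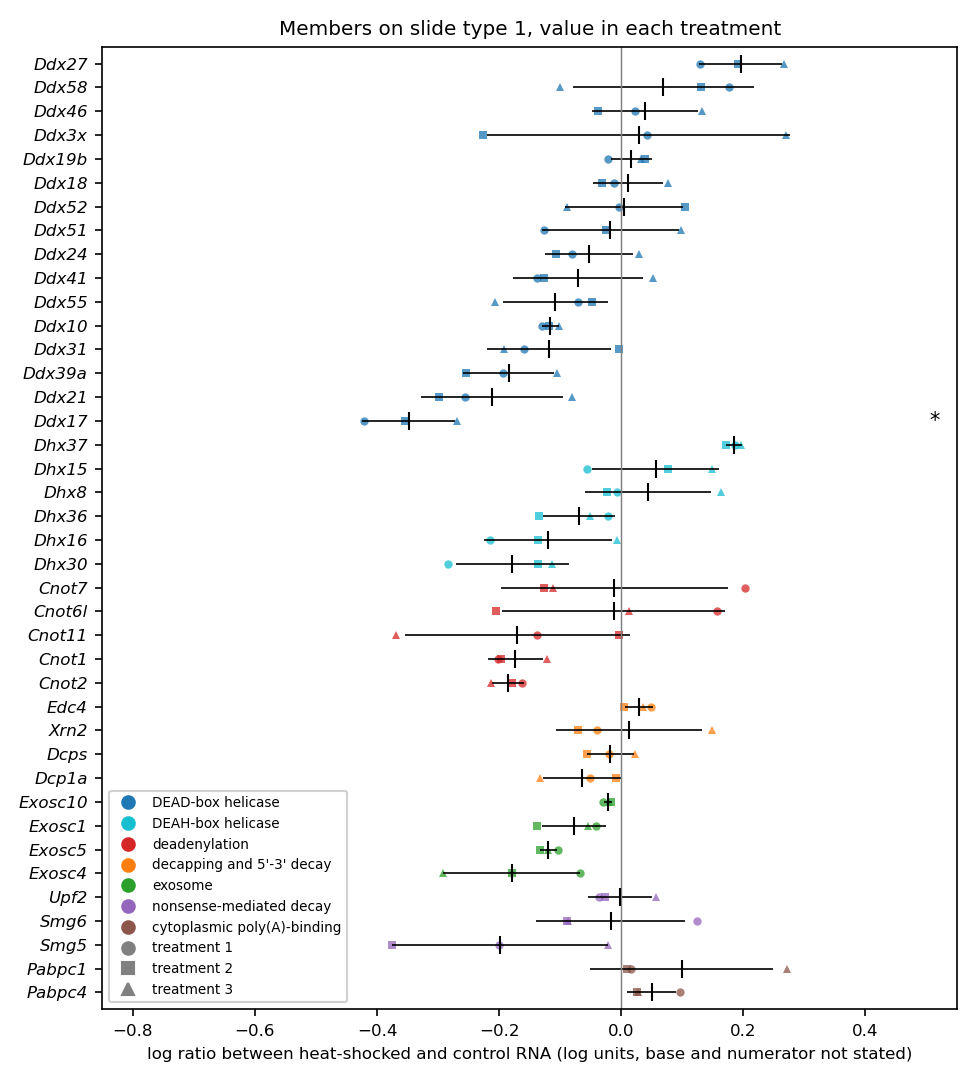
Log ratio (horizontal axis, log units of unstated base) of the 40 members on slide type 1 in each of 3 treatments (symbols), with the mean (vertical tick) and SD (bar), coloured by role; the asterisk marks Ddx17, which passed limma at an adjusted p of 0.05. The 39 others have means between −0.21 and 0.20.

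Genes of decapping and 5′-3′ decay had means close to 0 apart from Xrn2 on slide type 2. Xrn2, the nuclear 5′-3′ exonuclease that also acts in transcription termination, lay at −0.084, −0.43 and −0.033 log units there, a mean of −0.18 ± 0.22 (SD, n = 3; limma adjusted p = 0.0418). Its spread exceeded its mean, and the value rested on treatment 2: without it the mean was −0.058 (limma adjusted p = 0.391). Its mean on slide type 1 was 0.013 (limma adjusted p = 0.942). Dcp1a, an activator of decapping, lay at −0.051, −0.0081 and −0.13 (mean −0.064, limma adjusted p = 0.543), and Dcps, which breaks down the freed cap, had a mean of −0.018 (limma adjusted p = 0.898). The enhancers of decapping Edc4 and Edc3 had means of 0.030 on slide type 1 (limma adjusted p = 0.801) and −0.021 on slide type 2 (limma adjusted p = 0.767). The mean of Edc3 joined 0.39 with heat-shocked RNA in channel 1 and −0.44 in channel 2. That of Xrn2 on slide type 1 joined 0.21 and −0.18. Dcp1a, Dcps and Edc4 lay between −0.10 and 0.065 in each order. A mean close to 0 therefore does not show that a gene was unchanged.

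The exosome was seen through 5 subunits, 4 of them on slide type 1 and Exosc8 on slide type 2. Exosc8, a subunit of the ring, lay at −0.30, −0.38 and −0.25 log units, a mean of −0.31 ± 0.066 (SD, n = 3; limma adjusted p = 0.00043). All 3 treatments lay below 0, and 31.9% of all genes on its slide type also passed on the negative side. Of the 4 on slide type 1, 0 passed limma, against 5.65% of all genes on the negative side. At an unadjusted p under 0.05, 1 of the 4 did so, against 15.8% of all genes. Their median was −0.099, which lay at 0.21 without centring. The ring subunits Exosc4 and Exosc5 had means of −0.18 ± 0.11 and −0.12 ± 0.014 (SD, n = 3; limma adjusted p = 0.0978 and 0.209), Exosc1 of the cap had −0.078 (limma adjusted p = 0.438) and the nuclear nuclease Exosc10 had −0.022 (limma adjusted p = 0.859). Exosc8 was thus not set beside another subunit on its own slide type.

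Among the genes of nonsense-mediated decay, Upf2, which links UPF1 to the exon junction complex, lay on the positive side of slide type 2 at 0.19, 0.14 and 0.17 log units (mean 0.17 ± 0.022, SD, n = 3; limma adjusted p = 0.0214). The other slide type gave it a mean of −0.0020 (limma adjusted p = 0.991). Smg6, the endonuclease of the pathway, did not pass on either slide type, with means of −0.018 and 0.054 (limma adjusted p = 0.914 and 0.461). Smg5, an adaptor in the same pathway, lay at −0.20, −0.37 and −0.021 on slide type 1 (mean −0.20 ± 0.18, SD, n = 3; limma adjusted p = 0.113).

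The cytoplasmic poly(A)-binding proteins coat the tail that the deadenylases remove. Pabpc1 had a mean of 0.099 ± 0.15 (SD, n = 3; limma adjusted p = 0.412) on slide type 1, where its 3 probes lay between 0.091 and 0.11, and 0.12 ± 0.061 (SD, n = 3; limma adjusted p = 0.102) on slide type 2. Pabpc4 had 0.050 ± 0.040 (SD, n = 3; limma adjusted p = 0.646). The 3 values were above 0, and none reached an unadjusted p under 0.05.

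**Figure D3:**
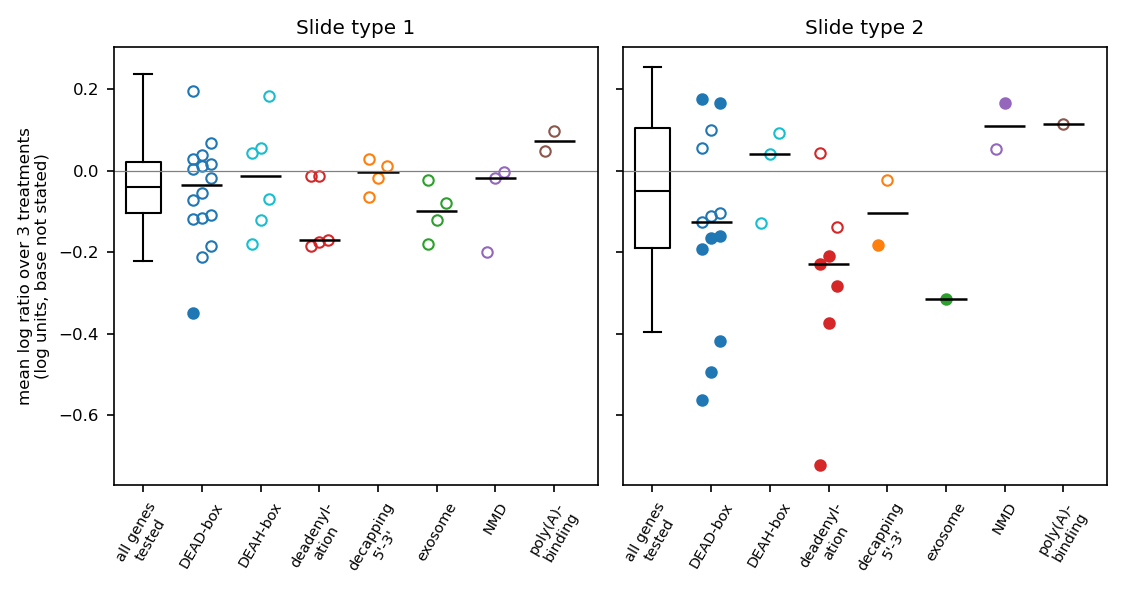
Mean log ratio over 3 treatments (vertical axis, log units of unstated base) by role on each slide type; points are genes, filled where they passed limma at an adjusted p of 0.05, short lines are medians, and the box at the left shows all genes tested (median and quartiles, whiskers from the 5th to the 95th percentile). On slide type 2 the deadenylation median of −0.23 lies below the −0.12 of the DEAD-box helicases and the −0.049 of all genes.

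Over all roles of slide type 2, 13 of 29 members (44.8%) passed on the negative side and 3 (10.3%) on the positive side, against 31.9% and 18.5% of all genes. By group these were 6 and 2 of the 16 helicases and 7 and 1 of the 13 decay genes. The median was −0.13 log units over all members, −0.12 over the helicases and −0.18 over the decay genes. In treatments 1, 2 and 3 it was −0.12, −0.11 and −0.048 over the helicases and −0.084, −0.35 and −0.033 over the decay genes. The decay genes thus had the lower median in treatment 2 only. On slide type 1 the test passed 1 of 22 helicases on the negative side and 0 of 18 decay genes, against 5.65% of all genes. Values below 0 were held by 12 of these helicases and 14 of these decay genes, and by 2575 of the 3838 genes tested. The median over the 40 members was −0.020, against 0.28 without centring. Centring on probes of 1 symbol in place of all probes changed the negative and positive counts of members to 8 and 6 on slide type 2 and to 1 and 2 on slide type 1. Over all genes the counts went from 1299 and 753 to 861 and 1249 for slide type 2, and from 217 and 220 to 119 and 254 for slide type 1. With no centring they were 65 and 76 over all genes of slide type 2, with Cnot2 and Ddx39b the 2 members left on the negative side, and 5 and 263 on slide type 1.

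Single treatments moved the counts near the threshold. Leaving out treatment 1, 2 or 3 gave 11, 12 or 11 members of slide type 2 that passed on the negative side and 0, 4 or 0 on the positive side. Over all genes of that slide type 934, 1226 or 1050 then passed on the negative side and 293, 983 or 380 on the positive side. Cnot2, Cnot7, Cnot8, Cnot9, Pan2, Exosc8, Ddx5, Ddx17 and Ddx39b passed in all 3 of these fits. Ddx4, Ddx20, Upf2 and Ddx47 did not pass without treatment 1 or without treatment 3, Ddx1 did not without treatment 2 or 3, and Ddx54 did not without treatment 1 or 2. For slide type 1 the count on the negative side that passed was 0, 1 or 4, against 53, 138 or 245 of all genes, and Ddx17 did not pass without treatment 1 (limma adjusted p = 0.0573). When single arrays of slide type 1 were fitted with the treatment as a random replicate block, 8 members passed on the negative side, Ddx17 among them, and 2 on the positive side, while the counts over all genes went to 473 and 289.

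Values also differed between the channel orders. With heat-shocked RNA in channel 1 and then in channel 2, Cnot2 lay at −0.64 and −0.81 log units on slide type 2, Ddx39b at −0.33 and −0.80, and Ddx17 at −0.19 and −0.80. The means of those 3 kept their side in both orders. The orders lay furthest apart in treatment 2 for these 3 and for Cnot8, Cnot9, Ddx4, Ddx5, Exosc8 and Xrn2. For Ddx1 and Cnot7 this was treatment 1. There the Cnot7 arrays lay at −0.38 and −0.75 for channel 1 and at 0.077 and 0.50 for channel 2. In treatment 2 on slide type 2 the Ddx17 arrays lay at 0.29 and 0.077 for channel 1 and at −1.50 and −1.29 for channel 2. By their means over treatments, 9 of the 16 members that passed there lay on the same side in both orders. The share of all passed genes that did so is not given here. The other 7 members changed side, namely Cnot8, Ddx4, Ddx20, Ddx47, Ddx54, Exosc8 and Xrn2. Exosc8, for example, lay at 0.0078 in one order and −0.64 in the other, and Ddx4 at −0.16 and 0.50. Fitted with limma on either channel order alone, 0 of the 29 members passed. At an unadjusted p under 0.05, 1 lay on the negative and 3 on the positive side for channel 1, against 3.21% and 4.61% of all genes. For channel 2 they were 10 and 1, against 19.5% and 13.1% of all genes. After adjustment over all genes of the slide type 6 passed on the negative and 44 on the positive side for channel 1 and 11 and 13 for channel 2. The part of the channel in these values was not tested.

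**Figure D4:**
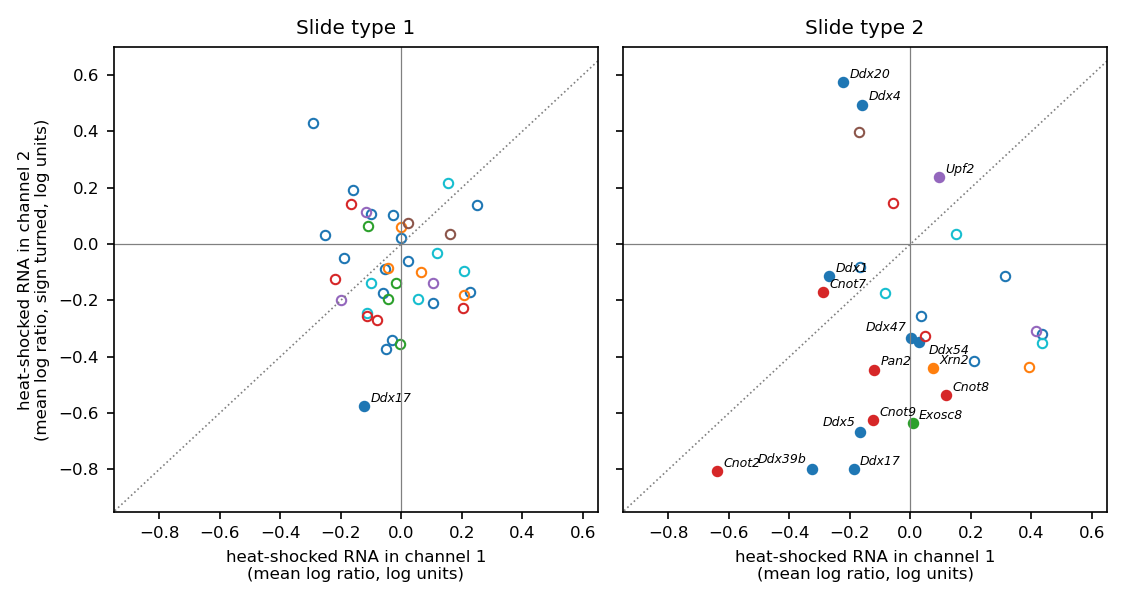
Mean log ratio of each member with heat-shocked RNA in channel 1 (horizontal axis) and in channel 2 with the sign turned (vertical axis), in log units of unstated base, on each slide type; filled points passed limma at an adjusted p of 0.05 and are named, and the dotted line marks equal values. On slide type 2 Cnot2 lies near the line at −0.64 and −0.81, while Ddx4 and Ddx20 lie in the upper left and Exosc8 well below the line.

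The 10 members on both slide types allowed the same gene to be compared between different probes within a treatment. The difference, slide type 2 minus slide type 1, passed for 1 of the 10, Cnot2, against 25.5% of the 943 genes on both (240 genes). For Cnot2 it was −0.55, −0.54 and −0.52 log units in treatments 1, 2 and 3, a mean of −0.54 ± 0.016 (SD, n = 3; limma adjusted p = 0.000761). The gene had 1 probe on slide type 2 and 3 on slide type 1, and the lowest of the 3 stood at −0.42. The next were Cnot7 at −0.22 (limma adjusted p = 0.0627), Upf2 at 0.17 (limma adjusted p = 0.0875) and Xrn2 at −0.20 (limma adjusted p = 0.0914). For Ddx17 the difference was −0.14 (limma adjusted p = 0.153). The other 5, Ddx18, Ddx27, Ddx52, Smg6 and Pabpc1, differed by between −0.14 and 0.071.

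**Figure D5:**
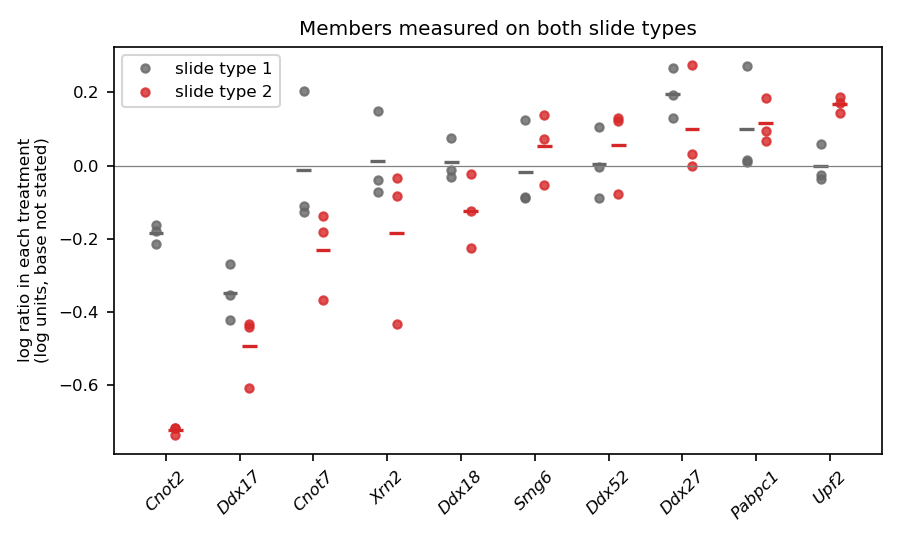
Log ratio in each of 3 treatments (points, log units of unstated base on the vertical axis) and mean (short line) of the 10 members on both slide types, ordered by their value on slide type 2. Cnot2 is apart on the 2 slide types, at −0.19 and −0.72, while Ddx17 lies below 0 on both, at −0.35 and −0.49.

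Probes of one gene were a further measure of error. Of 15 members with more than 1 probe on a slide type, 3 had probes over 0.2 log units apart (Cnot2 and Ddx55 on slide type 1 and Pan3 on slide type 2) and 6 had probes on opposite sides of 0. The Ddx55 probes stood at −0.24 and 0.029. The 2 probes of Ddx5 differed by 0.030 and the 3 of Pabpc1 by 0.020.

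Other RNA turnover genes, from a list of cofactors and partners that excludes the members, were on both sides too. On slide type 2, 21 of 28 lay below 0, as did 2359 of all its 4075 genes. There limma passed 11 on the negative side and 5 on the positive side, beside 31.9% and 18.5% of all its genes. The median was −0.11 log units. For slide type 1, 15 of 19 lay below 0, as did 2575 of all its 3838 genes. There limma passed 2 and 0, beside 5.65% and 5.73% of all its genes, with a median of −0.078. Eif4a2, a DEAD-box helicase of translation initiation, had the lowest value at −0.64, −0.59 and −0.58 in treatments 1, 2 and 3 (mean −0.60 ± 0.033, SD, n = 3; limma adjusted p = 6.5e-07). Its paralog Eif4a1 had −0.31 ± 0.14 on slide type 1 (SD, n = 3; limma adjusted p = 0.0133). Of the adaptors of deadenylation, Pum2, which recruits CCR4-NOT to bound mRNAs, had −0.52 ± 0.071 on slide type 2 (SD, n = 3; limma adjusted p = 3.49e-06) and −0.19 on slide type 1 (limma adjusted p = 0.0583). The adaptors Nanos1 and Btg4 passed on the positive side of slide type 2, at 0.35 ± 0.30 and 0.24 ± 0.18 (SD, n = 3; limma adjusted p = 0.00241 and 0.00666). Zfp36l1, which binds AU-rich elements, had −0.40 ± 0.0028 (SD, n = 3; limma adjusted p = 4.26e-05). The nuclear poly(A)-binding protein gene Pabpn1 had −0.38 ± 0.11 on slide type 2 (SD, n = 3; limma adjusted p = 0.000119) and −0.23 on slide type 1 (limma adjusted p = 0.0679). Of the microRNA silencing genes on slide type 2, Ago2, the slicing Argonaute, had −0.40 ± 0.070 and Tnrc6b, a partner of the Argonautes, had 0.16 ± 0.0049 (SD, n = 3; limma adjusted p = 5.71e-05 and 0.0248). Both exon junction complex genes measured there passed, Rbm8a at 0.48 ± 0.030 and Casc3 at −0.28 ± 0.11 (SD, n = 3; limma adjusted p = 6.99e-06 and 0.00158). Tia1, a stress granule protein gene, passed on opposite sides of the slide types, at −0.41 ± 0.20 and then 0.33 ± 0.087 (SD, n = 3; limma adjusted p = 0.00715 and 0.000343).

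Of the markers of single cell types, 0 of the 4 erythroid genes of slide type 2 passed limma, nor did Gata1 on slide type 1, with means from −0.14 to 0.088. Neither the 3 yolk sac endoderm markers nor the 2 endothelial markers measured on slide type 1 passed. Tubb3, of 2 neural markers, had −0.21 on slide type 1 (limma adjusted p = 0.0359), and Krt18, of the trophoblast list, had −0.19 on slide type 2 (limma adjusted p = 0.0212). On slide type 1 Krt18 had −0.11, Krt8 −0.044 and Hand1 −0.20, and none passed (limma adjusted p = 0.38, 0.763 and 0.1). Their part in the members' values was not tested.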

How the data were processed

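The deposited tables hold 7680 probes and 12 arrays per slide type, with 0 missing values and 0 columns left unmapped. Each value is a log ratio computed by the authors, treated here as a score, and the sources used here do not state its scale, centring, direction, background correction or normalization. Spots that were dim or saturated could not be left out, since no intensities were used. The labels name the channel that held heat-shocked RNA. The ratio was read as channel 1 over channel 2, with the sign turned for arrays that had heat-shocked RNA in channel 2.

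Arrays were centred on their median over all probes. The mean of the 4 arrays per treatment, in which both channel orders counted the same, gave 1 value for each slide type. Some arrays carry a suffix in the slide code whose meaning is not stated. Both channel orders of a treatment share its number in the labels, so they were averaged and not counted as replicates. A gene is the mean of its probes with 1 symbol, of which slide type 1 had 4749 probes (227 with several symbols, 2704 with none) and slide type 2 had 4935 (275 and 2470). limma 3.58.1 in R 4.3.3 (lmFit and eBayes on an intercept over 3 treatments) tested each slide type over all its genes with Benjamini-Hochberg adjustment at 0.05, and the difference between slide types within treatments. Members, roles and lists were chosen with earlier results of these data known. Named were all members that passed or were on both slide types, up to 3 further per role by smallest p, and all members of roles with 4 or fewer.

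In simulated data for slide type 1 (3838 genes), 81 of 100 changes of 0.5 units and 99 of 100 of 1 unit were recovered and 9 of 3638 unchanged genes called. For slide type 2 (4075 genes) these were 90, 100 and 4 of 3875. The noise was normal with each gene's SD between treatments and had no channel part. Changes under 0.5 units, the size of most members that passed, were not simulated. Updating symbols changed none. Figures used matplotlib 3.10.9.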

Additional observations from a re-analysis of the deposited data

Results flagged for a closer look

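The log ratio of Cnot2 on slide type 2 minus that on slide type 1 was −0.54 log units (SD 0.016, n = 3 treatments), with the same side in 3 of 3 treatments, and this difference between the slide types passed its own test (limma on the difference within treatments, adjusted p = 0.000761 over 943 genes). The mean was −0.19 on slide type 1, over 3 probes between −0.42 and 0.034, and −0.72 on slide type 2, from 1 probe. In that comparison 25.5% of the genes on both slide types passed. Which transcript parts the probes cover was not analysed here.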

How the results depend on the processing

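Each result was recomputed with 1 choice changed. The negative count of members on slide type 1 (1 as reported) was 0 without centring, 2 with heat-shocked RNA in channel 1 only (neither of them Ddx17), 8 with single arrays and the treatment as a random replicate block, 2 with the median or the first probe of a gene, 4 with 1 common spread and 3 with probes as features, and 0 to 4 when 1 treatment was left out. The positive count of members on slide type 1 (0) was 2 without centring, with centring on probes of 1 symbol and with the replicate block, 3 with channel 1 only, and 1 with 1 common spread and with arrays lacking the suffix. Over all genes this count (220) was 263 without centring, 254 with centring on probes of 1 symbol and 289 with the block. It was 408 with channel 1 only, 250 with 1 common spread and 193 with arrays lacking the suffix. On slide type 2 the negative count of members (13) was 2 without centring, 8 with centring on probes of 1 symbol, 7 with arrays brought to one scale and 0 on either channel order alone, and 11 to 12 when 1 treatment was left out. Over all genes this count (1299) was 65 without centring, 861 with centring on probes of 1 symbol and 539 on one scale. It was 6 with channel 1 only, 11 with channel 2 only and 934 to 1226 when 1 treatment was left out. The positive count of members on slide type 2 (3) was 0 without centring, on one scale and on either channel order alone, 6 with centring on probes of 1 symbol, 1 with arrays lacking the suffix, and 0 to 4 when 1 treatment was left out. Over all genes this count (753) was 76 without centring, 211 on one scale and 1249 with centring on probes of 1 symbol. It was 44 with channel 1 only, 13 with channel 2 only, 611 with arrays lacking the suffix and 293 to 983 without 1 treatment. For members the replicate block gave 13 negative and 2 positive on slide type 2, against 1446 and 718 over all genes. The count of members that differed between slide types (1) was 7 without centring, 3 with a robust prior, 2 with 1 common spread, 0 on either channel order alone, and 1 to 2 when 1 treatment was left out. As reported, 240 of the 943 genes on both slide types differed. Their counts in the other settings are not given here, so these changes cannot be read as particular to the members.

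On slide type 1, without centring, with centring on probes of 1 symbol and with channel 2 only, the median was 0.28, 0.023 and −0.098 for all members, 0.27, 0.0072 and −0.074 for the helicases, 0.13, −0.13 and −0.23 for deadenylation, 0.30, 0.040 and −0.092 for decapping, and 0.21, −0.056 and −0.17 for the exosome. With channel 1 only it was −0.11 for deadenylation, 0.032 for decapping and −0.031 for the exosome, and with arrays lacking the suffix −0.066 for all members and −0.068 for deadenylation. Leaving out 1 treatment gave −0.057 to −0.025 for all members, −0.077 to −0.015 for the helicases, −0.16 to −0.071 for deadenylation, −0.034 to 0.022 for decapping and −0.11 to −0.080 for the exosome. On slide type 2, without centring, with centring on probes of 1 symbol, with channel 1 only and with channel 2 only, the median was −0.045, −0.052, 0.0030 and −0.33 for all members and −0.034, −0.042, −0.040 and −0.29 for the helicases. It was −0.076 for the helicases on one scale, and −0.12 and −0.45 for deadenylation with channel 1 and channel 2 only. Leaving out 1 treatment gave −0.28 to −0.18 for deadenylation there.

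With heat-shocked RNA in channel 1 only, 24 of 69 member values changed side, a count for which no share over all genes is given. They include 7 that passed as reported and Ddx58, which passed in that setting: Ddx58 on slide type 1 (−0.29) and, on slide type 2, Cnot8 (0.12), Ddx20 (−0.22), Ddx4 (−0.16), Ddx47 (0.0030), Ddx54 (0.027), Exosc8 (0.0078) and Xrn2 (0.074). The causes were not tested. With 3 treatments, the 39 members that did not pass on slide type 1 (means −0.21 to 0.20) cannot be taken as equal between the groups. The same holds for the 13 members that did not pass on slide type 2 (means −0.14 to 0.12).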
